A study of Mus musculus with 6 samples.

Results

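The clustered histone genes of the mouse were read in whole testes on day 10, in 3 libraries of a germ cell conditional Eif5 knockout (cKO) and 3 Control libraries. A gene was a member when its symbol in the deposited table began with Hist1h, Hist2h, Hist3h or Hist4h followed by the class (1, 2a, 2b, 3 or 4), pseudogene symbols ending in -ps left out. The rule found 54 of the 22219 genes in the table, 51 replication-dependent genes and 3 germ cell variants (Hist1h1t, Hist1h2aa and Hist1h2ba). Of the 51, 5 encode the linker histone H1, 11 encode H2A, 13 encode H2B, 10 encode H3 and 12 encode H4. GENCODE M21 places 48 of the 54 on chromosome 13, 3 on chromosome 3, 2 on chromosome 11 and 1 on chromosome 6. That annotation lists 69 symbols of this pattern, and the 15 without a row in the table were not analysed here.

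The cKO mice were made by crossing floxed Eif5 mice (Eif5 fl/fl) with mice carrying Cre under the Stra8 promoter, which is active in male germ cells. The somatic cells of the organ (Sertoli, Leydig, peritubular and blood cells) are thus not the target of the deletion, yet their RNA is in every library. Eif5 encodes the initiation factor that triggers GTP hydrolysis by eIF2 on the scanning ribosome. The labels name neither strain nor the alleles of the Control animals, so an effect of the floxed alleles or of Cre cannot be told apart from that of the deletion. Values are normalised read counts, which are whole reads divided by 1 size factor per library, and the recovered totals were 35344558, 48015318 and 32555443 reads in cKO replicates 1, 2 and 3. Control replicates 1, 2 and 3 held 48409550, 33631996 and 35392214 reads. Eif5 itself stood at 8548, 8982 and 9574 in cKO testes and at 11964, 10551 and 11187 in Control testes. The groups did not overlap, and limma gave a log2 fold change of -0.31 (SE 0.0947, adjusted p = 0.024). That call was lost without cKO replicate 1 (adjusted p = 0.13) or cKO replicate 2 (adjusted p = 0.0875), and the fold change was 0.26 when libraries were scaled to germ cell markers.

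Histone octamers hold a pair each of H2A, H2B, H3 and H4, and H1 binds the DNA between them. Replication-dependent histone genes have many copies in clusters and are transcribed mainly in S phase, with NPAT as their coactivator. Their mRNAs are the only metazoan mRNAs that normally end without a poly(A) tail: the pre-mRNA is cut just past a conserved stem-loop, which the stem-loop binding protein SLBP holds. Polyadenylated forms of some of these genes are known from differentiated and quiescent cells. The germ cell variants H1t (Hist1h1t), TH2A (Hist1h2aa) and TH2B (Hist1h2ba) replace their somatic counterparts in male germ cells. The libraries were made with a kit for mRNA, per the labels, and were taken here as poly(A) mRNA libraries, although the labels do not describe the selection step. A value is therefore a level of the histone RNA that such a library holds, and not the total amount of histone mRNA.

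The stem-loop sequences are shown because they mark the place where the tail-less transcript end lies. A form was searched in the longest GENCODE M21 transcript of each member as 16 bases, a stem of 6 bases that pairs perfectly with its other arm around a loop of 4 bases. The stem had to begin with GG, continue with C or T only and end with CT, and the loop had to begin with T. Such a form was found in 37 of the 54 members. Among other protein-coding genes, where a match in any transcript counted, it was found in 11 of 21810 (0.0504%). Capitals mark the stem and lower case the loop, written as DNA letters 5′ to 3′.
Form of 19 members, among them Hist1h1c, Hist3h2a, Hist1h2bj and Hist1h3a: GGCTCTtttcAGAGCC
Form of 7 members, all encoding H4: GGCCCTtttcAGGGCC
Form of 6 members, among them Hist1h3c and Hist1h1t: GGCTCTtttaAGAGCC
Form of Hist1h4i and Hist2h4: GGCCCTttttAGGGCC
Form of Hist1h4a: GGCCCTtctcAGGGCC
Form of Hist1h3g: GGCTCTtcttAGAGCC
Form of Hist1h4j: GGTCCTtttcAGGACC

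All 11 H4 genes in which it was found had a stem that starts GGCC or GGTC, whereas every such stem of an H1, H2A, H2B or H3 gene starts GGCT. In some of the members with the most reads the transcript went on well past this hairpin, and in others it did not. The Hist1h1c transcript carries it at bases 705 to 720 of 1560, so 840 bases follow. Hist3h2a has it at bases 488 to 503 of 2146, followed by 1643 bases, and Hist1h4i at bases 382 to 397 of 727, followed by 330. In Hist1h2bj it lies at bases 425 to 440 of 463, with 23 bases after it. The longest transcripts of Hist2h2be (2620 bases, 1 exon) and Hist1h2bc (1156 bases, 2 exons) hold none.

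Promoters are shown for the H1, H2B and H4 gene with the most reads among those with a RefSeq entry, since the classes differ in their promoter motifs. The windows reach from 250 bases before to 50 bases after the annotated start, on GRCm38.p6. RefSeq windows were matched for 47 members, the others being Hist2h2be, Hist1h2bc, Hist2h4, Hist1h2aj, Hist1h2ap, Hist1h3f and Hist1h3a. Capitals mark every match, on either strand, to CCAAT (the box bound by NF-Y), ATTTGCAT (the octamer bound by OCT1) or TATAAA (the TATA box), and no 2 matches of a member overlapped. The strand of each gene is given with its coordinates.
Hist1h1c, chr13:23738557-23738856, plus strand: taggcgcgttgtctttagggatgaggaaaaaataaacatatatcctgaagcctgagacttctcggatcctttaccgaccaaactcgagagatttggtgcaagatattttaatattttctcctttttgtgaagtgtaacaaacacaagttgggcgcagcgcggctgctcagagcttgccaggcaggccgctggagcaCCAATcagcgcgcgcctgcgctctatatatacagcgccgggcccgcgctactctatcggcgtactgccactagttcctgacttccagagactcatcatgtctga
Hist1h2bj, chr13:22042948-22043247, plus strand: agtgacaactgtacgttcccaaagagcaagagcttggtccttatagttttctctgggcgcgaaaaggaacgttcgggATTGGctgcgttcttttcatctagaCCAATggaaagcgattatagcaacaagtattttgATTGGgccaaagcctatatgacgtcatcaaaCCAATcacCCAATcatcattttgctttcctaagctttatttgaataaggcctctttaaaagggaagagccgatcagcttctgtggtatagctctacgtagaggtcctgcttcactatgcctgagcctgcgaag
Hist1h4i, chr13:22041313-22041612, minus strand: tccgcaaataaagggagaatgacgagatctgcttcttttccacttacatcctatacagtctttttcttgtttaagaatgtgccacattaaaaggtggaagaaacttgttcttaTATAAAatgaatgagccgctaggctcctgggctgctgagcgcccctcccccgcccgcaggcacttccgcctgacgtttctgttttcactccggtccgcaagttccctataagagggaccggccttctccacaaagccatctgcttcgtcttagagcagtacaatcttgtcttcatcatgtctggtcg

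The Hist1h2bj window holds 5 CCAAT matches and the Hist1h1c window 1, whereas the Hist1h4i window holds none and has 1 TATAAA match far from the start. CCAAT was present in 39 of the 47 windows (83.0%), against 37.9% of 27025 genes with a window. Every replication-dependent H1, H2A, H2B and H3 window had it (5, 9, 11 and 8 windows), but only 3 of the 11 H4 windows did (27.3%). The octamer was in 10 of the 47 windows (21.3%, against 1.75% of all genes), of which 4 were replication-dependent H2A genes and 4 were replication-dependent H2B genes, and the others were Hist1h2ba and Hist1h2aa. Some neighbouring H2A and H2B genes on opposite strands have overlapping windows, so the same match is counted for both. Such pairs include Hist1h2ah with Hist1h2bk, Hist1h2ae with Hist1h2bg, Hist1h2aa with Hist1h2ba and Hist1h2ag with Hist1h2bj. TATAAA was in 30 of the 47 (63.8%, against 14.2%). A match is a string of letters in a window and not a measured binding site.

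Reads of the family were few and came from few genes. All 54 genes together made up between 0.005% and 0.006% of the summed values of a library. Hist2h2be (which encodes H2BE, an H2B variant known from mouse olfactory neurons) gave 21.2% of the family's reads over the 6 libraries, as the share of summed mean values. Hist1h1c (the linker histone H1.2) gave 19.3%, Hist1h2bc (an H2B gene) 18.7% and Hist3h2a (an H2A gene outside the large cluster) 9.63%, so these 4 genes held 68.9%. Hist1h4i (an H4 gene) added 5.37% and Hist1h2bj (an H2B gene) 2.94%. Per kilobase of the longest transcript, the mean level over all libraries was 363 for Hist1h2bc, 277 for Hist1h1c, 181 for Hist2h2be, 165 for Hist1h4i, 142 for Hist1h2bj and 100.4 for Hist3h2a. The same 6 genes led on this scale, in another order.

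Of the 54 members, 24 passed the filter on low reads (edgeR's filterByExpr, minimum count 10), all of them replication-dependent, and 27 replication-dependent genes and the 3 variants did not. Members that passed had 61 or more reads in total, and those that did not had at most 78, the highest being Hist1h4j. A total of 19 members were at 0 in at least 1 library. Many copies are nearly alike: the median member shared 46.4% of the 50-base words of its longest transcript with another gene, and 23 members shared over 50%. How the counting divided such reads is not given in the sources used here, so values of single copies are uncertain. Hist2h2be, Hist1h1a, Hist1h1b and Hist1h1t shared none. Hist1h1c shared 8.54%, Hist1h4i 28.9%, Hist1h2bc 30.6%, Hist3h2a 31.5%, Hist1h3a 49.5% and Hist1h2bj 59.4%. Besides other H2B genes, Hist1h2bc shared words with many genes that do not encode histones, among them Auts2, Neat1 and Zeb2. Some of its reads could belong to these.

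**Figure D1:**
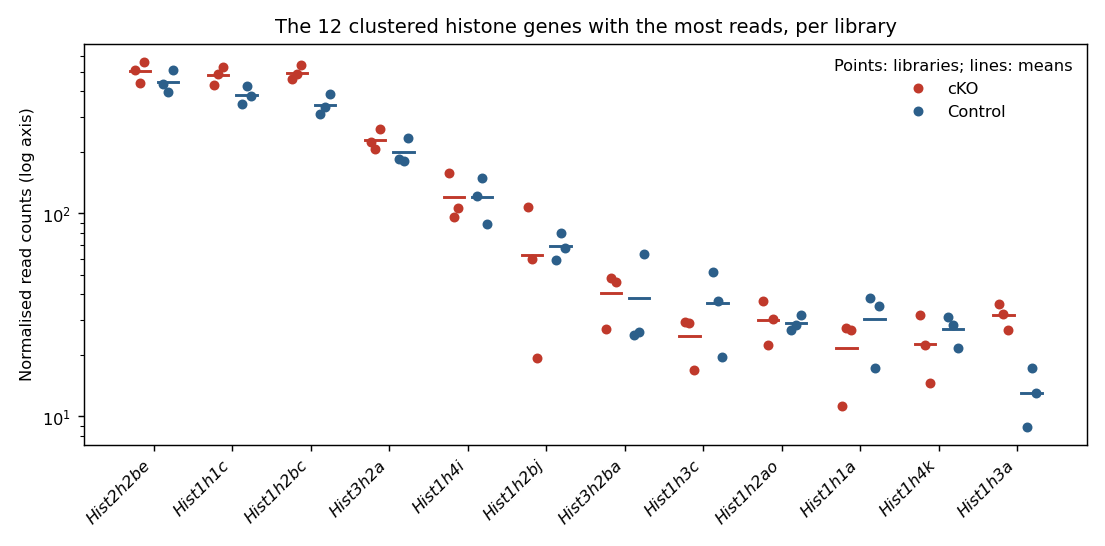
Normalised read counts (log axis) of the 12 members with the highest mean, with 1 point per library, cKO left of Control in each pair, and lines for group means. The groups of Hist1h2bc, Hist1h1c and, at a low level, Hist1h3a do not overlap, and Hist1h2bj spans 19.4 to 108 within cKO.

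In cKO testes few of the clustered histone genes differed from Control testes by more than the spread between libraries. Of the 24 genes tested 1, Hist1h2bc, was called higher (4.17%, against 9.63% of all 17570 genes tested) and 0 were called lower (against 10.4% of all genes), with limma and an adjusted p under 0.05 over all genes. edgeR's quasi-likelihood test and DESeq2 gave the same counts of 1 and 0. In either direction that is 4.17% of the members tested, against 20.0% of all genes tested. Of the calls over all genes 51.9% were lower in cKO, and this share was 75.6% with library totals, 99.6% with Sertoli cell marker scaling and 2.31% with germ cell marker scaling. At an unadjusted p under 0.05, 3 of the 24 passed (Hist1h2bc, Hist1h3a and Hist1h1c), against 33.4% of all genes. Log2 fold changes ran from -0.65 to 1.18, with 16 above 0, 8 below 0 and a median of 0.15, against a median of 0.01 over all genes. Without the filter, 32 of the 51 were above 0 and 19 below, with a median of 0.14, 1 call and 5 at an unadjusted p under 0.05. Read depth limits these counts: 14 of the 24 had a mean value under 25, a band in which 2.59% of all genes were called and the median SE of a log2 fold change was 0.522. Between 25 and 100 lay 5 members with 0 calls (8.43% of all genes in that band were called), and between 100 and 1000 lay 5 with 1 call (20.8% of all genes in that band).

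The linker histone genes were led by Hist1h1c, which had 430, 485 and 526 normalised read counts in cKO replicates 1, 2 and 3, against 348, 422 and 379 in Control replicates 1, 2 and 3. All 3 cKO libraries lay above all 3 Control libraries, though by little. The means were 480 ± 48.2 in cKO and 383 ± 37.5 in Control testes (SD, n = 3 each), and the log2 fold change of 0.32 (95% interval 0.04 to 0.61) did not pass the adjusted threshold (limma adjusted p = 0.10). Hist1h1a, which encodes H1.1, had 11.3, 27.3 and 26.7 in cKO and 38.5, 17.4 and 34.9 in Control testes. Its groups overlapped and limma gave a log2 fold change of -0.46 (SE 0.44, adjusted p = 0.502). Hist1h1e, which encodes H1.4, was too low to be tested, with 9.0, 4.82 and 19.4 in cKO and 7.40, 10.9 and 2.18 in Control testes. Hist1h1b and Hist1h1d, the other H1 genes, were lower still and were not tested. Summed over the 5 genes, H1 came to 458, 538 and 579 in cKO and 402, 464 and 427 in Control testes, an overlap by 1 library.

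Among the H2A genes 3 of 11 were tested and 0 were called. Hist3h2a had 225, 208 and 259 in cKO and 186, 181 and 234 in Control testes. The lowest Control libraries lay below every cKO library, but Control replicate 3 lay within the cKO range, and limma gave a log2 fold change of 0.21 (SE 0.174, adjusted p = 0.438). Its exons overlap Trim17 on the same strand and Gm44313 on the opposite strand, so some of its reads could belong to these. Hist1h2ao had 37.1, 22.5 and 30.3 in cKO and 26.6, 28.3 and 31.6 in Control testes, with a log2 fold change of 0.03. Hist1h2ag showed the lowest fold change of the 24 genes tested, with 24.8, 4.82 and 7.27 in cKO and 9.61, 23.95 and 19.6 in Control testes. The cKO libraries of this gene lay on either side of the Control range, and its log2 fold change of -0.65 had an SE of 0.577. The 8 remaining H2A genes, among them Hist1h2aj, which GENCODE M21 annotates as a pseudogene, were not tested. Class sums for H2A were 333, 275 and 319 in cKO and 248, 279 and 328 in Control testes.

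H2B was the class with the most reads and the only call. Hist1h2bc had 459, 485 and 540 in cKO replicates 1, 2 and 3, against 310, 333 and 389 in Control replicates 1, 2 and 3. Every cKO library lay above every Control library. Means were 495 ± 41.5 in cKO and 344 ± 40.8 in Control testes (SD, n = 3 each), a log2 fold change of 0.52 (SE 0.139, 95% interval 0.24 to 0.81, limma adjusted p = 0.011). Without cKO replicate 3 the log2 fold change was 0.46 and the call was lost (limma adjusted p = 0.061). Scaled to Sertoli cell markers it was 0.09 (adjusted p = 0.769), and over all alternatives it ran from 0.09 to 1.10.

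Hist2h2be, the member with the most reads, had 509, 442 and 556 in cKO and 433, 396 and 510 in Control testes. Control replicate 3 exceeded all but 1 of the cKO libraries, and limma gave a log2 fold change of 0.17 (SE 0.139, adjusted p = 0.423). Hist1h2bj, whose transcript ends near the stem-loop, varied widely for its level, with 108, 59.4 and 19.4 in cKO and 59.2, 80.6 and 67.6 in Control testes. Its cKO libraries thus spanned the whole Control range, with SDs of 44.4 in cKO and 10.8 in Control testes, and the log2 fold change was -0.43 (SE 0.406), or 0.22 without cKO replicate 3. Hist1h2be had 33.8, 19.3 and 17.0 in cKO and 8.88, 15.2 and 19.6 in Control testes, and shares exonic sequence with Hist1h1e on the same strand. Hist1h2bg had 4.5, 15.3 and 8.48 in cKO and 16.3, 8.71 and 13.1 in Control testes, so neither of these H2B genes had separate groups. Hist3h2ba and Hist1h2bm, the other H2B genes tested, had log2 fold changes of 0.16 and -0.00. Hist1h2bn, which was not tested and is named after its values were seen, was the only member wholly lower in cKO, with 4.5, 6.42 and 2.42 in cKO and 8.88, 13.1 and 15.3 in Control testes. Its unfiltered log2 fold change was -1.18 (limma unadjusted p = 0.044, adjusted p = 0.165).

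The H2B sum was 1177, 1116 and 1219 in cKO and 885, 901 and 1107 in Control testes. The cKO libraries lay above the Control libraries, the nearest pair being 1116 in cKO and 1107 in Control testes. This sum includes Hist1h2bc, the only H2B gene tested whose groups did not overlap, so it is not separate evidence for the class.

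For H3, 4 of 10 genes were tested and 0 were called. Hist1h3a had 36.0, 32.1 and 26.7 in cKO and 8.88, 17.4 and 13.1 in Control testes. The groups were apart at this low level, with means of 31.6 ± 4.70 in cKO and 13.1 ± 4.27 in Control testes (SD, n = 3 each). This was the highest fold change of the 24 genes tested, 1.18 on the log2 scale (SE 0.427, 95% interval 0.29 to 2.07), and it stayed short of the threshold (limma adjusted p = 0.0554). With a pseudocount of 16 in place of 2 it was called (log2 fold change 0.71, adjusted p = 0.0446). Hist2h3c2, an H3 gene on chromosome 3, had 27.0, 28.9 and 13.3 in cKO and 13.3, 10.9 and 13.1 in Control testes. Its lowest cKO library was level with its highest Control library, and the log2 fold change of 0.74 (SE 0.468) was not called. Hist1h3c had 29.3, 28.9 and 17.0 in cKO and 51.8, 37.0 and 19.6 in Control testes, with overlapping groups and a log2 fold change of -0.44 (SE 0.407). H3 sums were 139.5, 156 and 95.7 in cKO and 114, 121 and 82.9 in Control testes.

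H4 had 8 of its 12 genes tested and 0 called. Hist1h4i had 158, 96.4 and 107 in cKO and 121, 150 and 88.3 in Control testes. The group means of 120 ± 32.8 in cKO and 120 ± 31.0 in Control testes (SD, n = 3 each) were nearly equal, with a log2 fold change of 0.00 (95% interval -0.50 to 0.51). Hist1h4k had 31.5, 22.5 and 14.5 in cKO and 31.1, 28.3 and 21.8 in Control testes. Hist1h4d had 25.9, 16.1 and 26.7 in cKO and 8.88, 23.95 and 4.36 in Control testes, the widest difference of the class at a log2 fold change of 1.002 (SE 0.536, limma adjusted p = 0.198). Hist1h4c had 29.3, 28.9 and 9.69 in cKO and 17.8, 26.1 and 13.1 in Control testes. All of these H4 genes had overlapping groups. H4 sums came to 372, 252 and 240 in cKO and 260, 282 and 206 in Control testes, again overlapping.

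**Figure D2:**
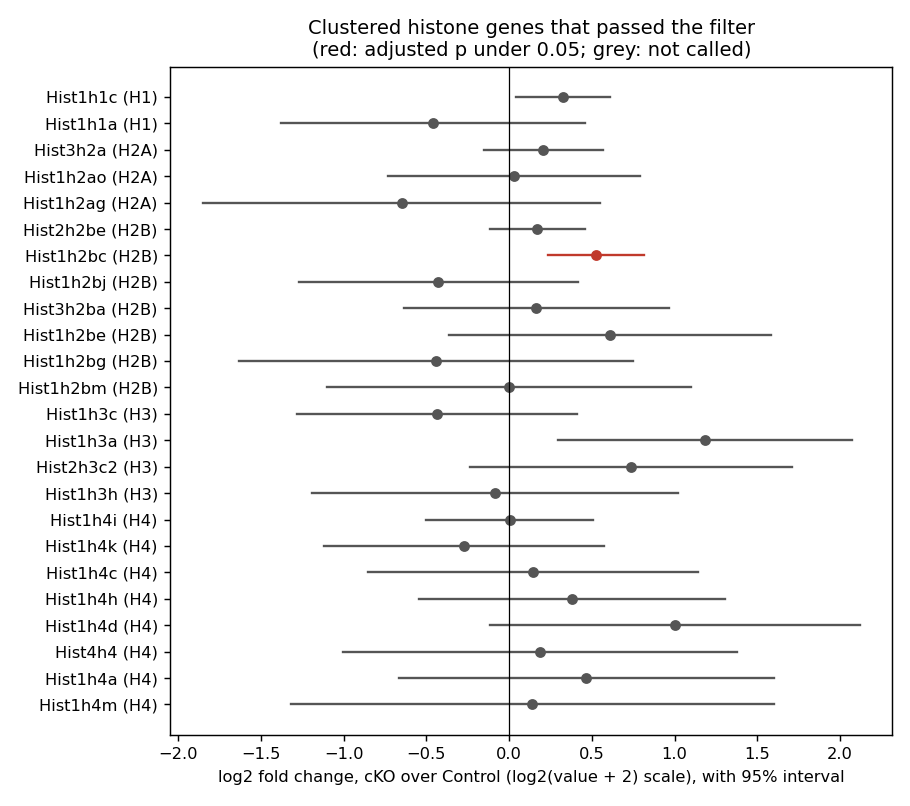
Log2 fold changes, cKO over Control on the log2(value + 2) scale, with 95% intervals (limma) for the 24 clustered histone genes that passed the filter, ordered by class. Only the interval of Hist1h2bc (red) belongs to an adjusted p under 0.05. Those of Hist1h1c and Hist1h3a lie above 0 without passing it.

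Over the 24 genes, cKO libraries lay above Control libraries in 4 (Hist1h2bc, Hist1h1c, Hist1h3a and, by a near tie of 13.33 in cKO and 13.31 in Control testes, Hist2h3c2) and below in 0. Over all genes tested the shares were 18.3% above and 18.4% below. The sum of all 51 replication-dependent genes was 2480, 2337 and 2452 in cKO and 1908, 2047 and 2151 in Control testes. The groups did not overlap, and the ratio of their means (2423 ± 75.8 in cKO and 2035 ± 122 in Control testes, SD, n = 3 each) was 1.19. This ratio depends on the scaling. It was 1.12 with libraries scaled to their totals and 1.76 with scaling to the germ cell markers Ddx4, Dazl, Mael and Tdrd1, both with cKO above Control. With scaling to Sertoli cell markers it was 0.877, with sums of 2006, 2155 and 2093 in cKO and 2777, 2170 and 2188 in Control testes. Every cKO library then lay below every Control library, the nearest pair being 2155 in cKO and 2170 in Control testes.

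The sum was also taken apart by read level. The 4 members with the most reads summed to 1623, 1620 and 1882 in cKO and 1277, 1333 and 1513 in Control testes, without overlap. The other 47 replication-dependent genes summed to 857, 717 and 571 in cKO and 632, 714 and 638 in Control testes. In those 47 the cKO libraries lay on either side of the Control libraries.

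**Figure D3:**
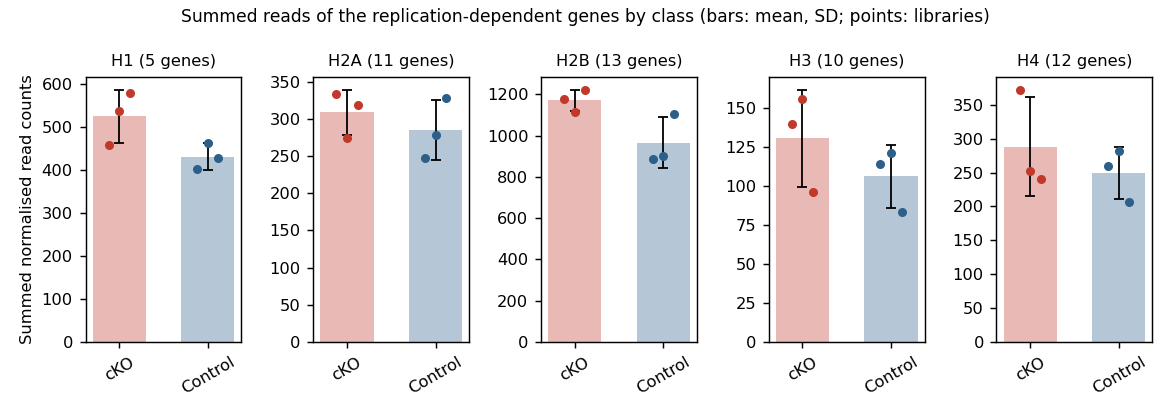
Summed normalised read counts of the replication-dependent genes of each class, with bars for means, whiskers for SD and 1 point per library, cKO left of Control. Only the H2B points do not overlap, and there the lowest cKO sum is 1116 against a highest Control sum of 1107. The H2B sum includes Hist1h2bc, the only gene called.

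By annotated transcript end, reads came mainly from members whose longest transcript runs past the stem-loop or holds none. In 19 of the 51 replication-dependent genes the longest transcript ran over 100 bases past it, and these held 44.0% of the family's reads and 10 poly(A) signals (AATAAA or ATTAAA in the last 50 bases). Another 15 genes had no stem-loop in the longest transcript and held 45.1% of the reads, with 2 signals. This set includes short transcripts, such as Hist1h2bl (381 bases) and Hist1h4k (312 bases), where a stem-loop past the annotated end would be missed. Hist1h2bp, also in the set, has one in another transcript. The 17 that end near the stem-loop held 10.4%, with 1 signal. Such a signal was present in 13 genes, which held 61.7% of the reads, and absent in 38, which held 37.9%; among other protein-coding genes 72.3% have one. Median levels were less far apart than these shares: 13.9 where transcripts ran past, 7.11 where no stem-loop was found and 6.86 where transcripts ended near it. Per kilobase the medians were 15.5, 14.0 and 14.4 in that order, so the unequal shares rest on a few genes.

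The groups of genes by transcript end were then compared between genotypes. Genes that run past the stem-loop summed to 1082, 1058 and 1112 in cKO and 818, 935 and 906 in Control testes. Those with none in the longest annotated transcript summed to 1089, 1043 and 1172 in cKO and 869, 864 and 1023 in Control testes. In both sets every cKO library exceeded every Control library, but each sum rested largely on a few genes. Of the family's reads, genes without a stem-loop held 45.1%, of which Hist2h2be gave 21.2% and Hist1h2bc 18.7%. The other genes tested in that set, Hist1h1a, Hist1h4k and Hist1h3h, had log2 fold changes of -0.46, -0.27 and -0.09, and none was called. Genes that run past it held 44.0%, of which Hist1h1c gave 19.3% and Hist3h2a 9.63%. Genes ending near the stem-loop summed to 308, 235 and 168 in cKO and 221, 247 and 222 in Control testes, and here the cKO libraries spread on either side of the Control libraries. Whether the sets differ in their change was not tested.

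**Figure D4:**
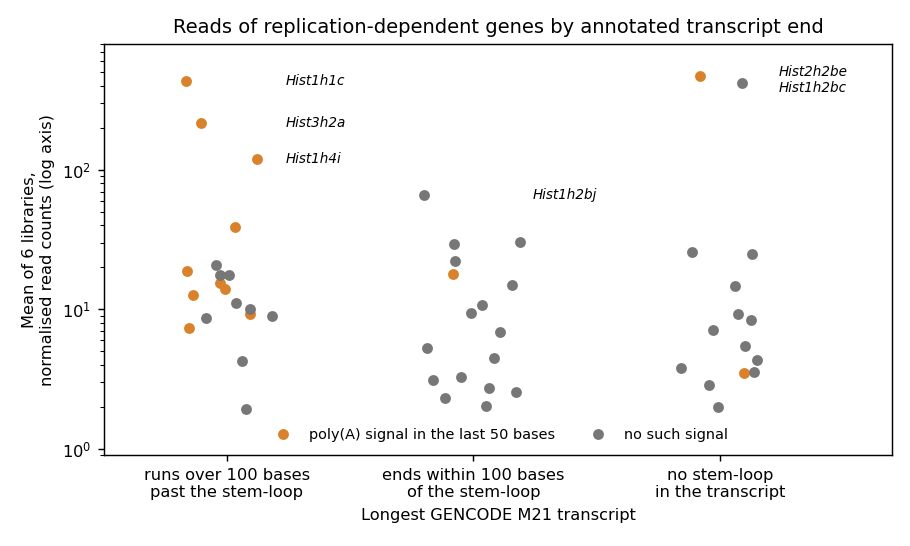
Mean normalised read counts over the 6 libraries (log axis) of the 51 replication-dependent genes, grouped by the end of the longest GENCODE M21 transcript, with 1 point per gene and orange for a poly(A) signal in the last 50 bases. Hist1h2bj is the highest gene among those that end near the stem-loop, and 5 genes of the other groups lie above it.

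The germ cell variants were near the limit of detection on day 10 and none could be tested with the filter on. Hist1h2ba (TH2B) had 0, 0 and 0 reads in cKO replicates 1, 2 and 3, against 26, 10 and 0 reads in Control replicates 1, 2 and 3. All cKO libraries were thus at 0, and so was 1 of the Control libraries. If reads were counted independently, a count of 0 would allow up to 3 reads in a library, counting error only. Of low recovered counts over all libraries 78.1% were even, so reads may not be independent and the bound could be higher. Without the filter its log2 fold change was -2.03 (limma unadjusted p = 0.018, adjusted p = 0.0900), a size that depends on the pseudocount. Hist1h2aa (TH2A) had 6, 0 and 0 reads in cKO and 0, 4 and 0 in Control testes. Hist1h1t (H1t) had 0, 2 and 0 reads in cKO and 2, 2 and 4 in Control testes. No difference could be shown for these genes at this depth.

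Markers of several testis cell types moved with genotype. Of all genes tested 9.63% were called higher and 10.4% lower. Of 8 germ cell markers 6 were called lower in cKO, with summed levels of 29885 to 32052 in cKO and 43789 to 52148 in Control testes. All 10 meiotic entry markers were lower (6778 to 8129 in cKO, 17855 to 21550 in Control testes). Sertoli cell markers were called higher in 6 of 10 (484356 to 552144 in cKO, 306916 to 439121 in Control testes), as were 6 of 7 Leydig cell, 4 of 6 macrophage, 2 of 6 erythroid and 1 of 5 mesothelium and epididymis markers. The erythroid sum stood apart in cKO replicate 1 (11746, 5182 and 4727 in cKO, 4408, 4618 and 3573 in Control testes), and 0 erythroid markers were called higher without that library, without Control replicate 3 or with DESeq2. Peritubular myoid markers had 2 of 5 called lower, and endothelial markers 1 higher and 1 lower of 5. In a list of 5 genes, 1 call in a direction is not set apart from the shares of all genes. No marker was at 0 in any library, so the germ cells and the somatic cells of a testis were all represented. The part of these shifts in the histone values was not tested, and fewer cells of a type cannot be told apart from less RNA per cell.

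Histone variants made outside S phase generally carry poly(A) tails, and 12 genes listed as such variants were tested. Whether each of the 12, H2afx among them, was read only from tailed transcripts was not tested. In cKO testes 2 were called higher (16.7%, against 9.63% of all genes) and 2 lower (against 10.4%), and their log2 fold changes had a median of 0.20. H2afx (H2A.X, phosphorylated at DNA breaks) had 3539, 3838 and 3492 in cKO and 2373, 2880 and 2782 in Control testes, without overlap. Limma gave a log2 fold change of 0.44 (SE 0.0967, adjusted p = 0.00333), and 0.01 with Sertoli cell marker scaling (adjusted p = 0.984). H2afz (H2A.Z) had 8441, 8261 and 8880 in cKO and 6046, 7182 and 7702 in Control testes, a log2 fold change of 0.30 (limma adjusted p = 0.0406). That call was lost with edgeR (adjusted p = 0.0563), with library totals and without any 1 of cKO replicates 1, 2 and 3 (0.106, 0.0835 and 0.154) or Control replicates 1 and 2 (0.119 and 0.0513). With Sertoli cell marker scaling the sign turned, to -0.14.

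H1fx (the linker variant H1X) fell, with 683, 870 and 619 in cKO and 1193, 1631 and 1297 in Control testes (log2 fold change -0.92, limma adjusted p = 6.69e-05). With germ cell marker scaling it stood at -0.35 and was not called (adjusted p = 0.105). Cenpa, the centromeric H3, also fell, with 2551, 2400 and 2526 in cKO and 3248, 3532 and 3746 in Control testes (log2 fold change -0.49, limma adjusted p = 0.000847), but stood at 0.08 with germ cell marker scaling. The H3.3 genes H3f3a and H3f3b were not called, with log2 fold changes of 0.12 and 0.26 (limma adjusted p = 0.40 and 0.123). H3f3b had 47230, 49134 and 51860 in cKO and 41897, 39783 and 42023 in Control testes, and was called with DESeq2 (adjusted p = 0.0099). Of the later germline and oocyte variants and protamines, 6 of 13 were matched and 2 passed the filter, with 0 called.

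The machinery that transcribes histone genes and processes their mRNAs had lower levels where it was called at all. Of 22 genes tested, 8 were called lower (36.4%, against 10.4% of all genes) and 0 higher (against 9.63% of all genes), and the median of their log2 fold changes was -0.19. Slbp had 1965, 2116 and 1834 in cKO and 3259, 2526 and 2528 in Control testes. The groups were apart, with a log2 fold change of -0.48 (SE 0.107, limma adjusted p = 0.00354). Npat had 2211, 2280 and 2337 in cKO and 3348, 2842 and 2991 in Control testes, also apart, at a log2 fold change of -0.42 (limma adjusted p = 0.00346). Casp8ap2, which encodes FLASH, the partner of the U7 particle in histone pre-mRNA cleavage, had a log2 fold change of -0.76 (limma adjusted p = 6.76e-05). Zfp473, a zinc finger protein of the same cleavage complex, was at -1.22, with 81.0, 69.1 and 72.7 in cKO and 212, 138 and 184 in Control testes.

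The cyclins E activate CDK2, which phosphorylates NPAT at the start of S phase. Ccne2 had 563, 724 and 868 in cKO and 2175, 1521 and 2036 in Control testes, the lowest of the 22 genes tested at a log2 fold change of -1.42 (limma adjusted p = 1.04e-06). Ccne1 was at -0.89 (limma adjusted p = 0.000573). The summed list ran from 49650 to 52836 in cKO and from 55513 to 63178 in Control testes. With germ cell marker scaling 13 of the 22 were called higher and 2 lower, against 10727 higher and 254 lower of all 17570 genes tested. Slbp (0.09) and Npat (0.15) changed sign. Under that scaling Casp8ap2 stood at -0.19 (limma adjusted p = 0.195) and Ccne1 at -0.32 (adjusted p = 0.147), no longer called, while Zfp473 (-0.66) and Ccne2 (-0.84) were. With Sertoli cell marker scaling 16 were called lower, against 5031 of all 17570 genes tested.

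Histone chaperones, which carry newly made histones to DNA, had 9 of 27 tested genes called lower (33.3%, against 10.4% of all genes) and 0 called higher (against 9.63%), and the median of their log2 fold changes was -0.14. Nasp, a chaperone of H3 and H4 and of linker histones, had 5088, 6135 and 5624 in cKO and 11566, 11122 and 9116 in Control testes (log2 fold change -0.91, limma adjusted p = 4.53e-06). The cKO libraries all lay far below the Control libraries. Asf1b, which hands H3 and H4 to the assembly factors, was at -0.84, and Mms22l, a partner of TONSL at stalled replication forks, at -0.66. Chaf1a, the large subunit of the CAF-1 assembly factor, was at -0.53, Ubn1 of the HIRA complex at -0.44 and Hat1, which acetylates new H4, at -0.41. Without cKO replicate 3 the list had 5 lower genes in place of 9, and Ubn1 was not called (limma adjusted p = 0.0545). With germ cell marker scaling 1 was lower and 16 were higher, against 254 lower and 10727 higher of all 17570 genes tested. Chaf1a (0.04), Hat1 (0.16) and Ubn1 (0.14) changed sign. Asf1b then stood at -0.26 (limma adjusted p = 0.0681) and Mms22l at -0.09 (adjusted p = 0.569), no longer called, and Nasp at -0.34, still called.

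DNA replication genes expressed in S phase had 21 of 27 called lower (77.8%, against 10.4% of all genes) and 0 called higher (against 9.63%), and the median of their log2 fold changes was -0.49. Rrm2, the small subunit of ribonucleotide reductase, had 835, 845 and 779 in cKO and 2038, 1722 and 1764 in Control testes (log2 fold change -1.16, limma adjusted p = 1.91e-07). Orc1 of the origin recognition complex was at -0.99, the polymerase subunit gene Pole at -0.89 and the licensing factor gene Cdc6 at -0.77. Uhrf1, which binds hemimethylated DNA, was at -0.75, and Cdc45 of the replicative helicase at -0.71. Leaving out 1 library at a time gave 15 to 19 lower genes. With germ cell marker scaling 3 were lower and 6 higher, against 254 lower and 10727 higher of all 17570 genes tested. Cdc6 (-0.20), Uhrf1 (-0.18) and Cdc45 (-0.14) were then no longer called (limma adjusted p = 0.264, 0.281 and 0.378), whereas Rrm2 (-0.59), Orc1 (-0.42) and Pole (-0.31) were.

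**Figure D5:**
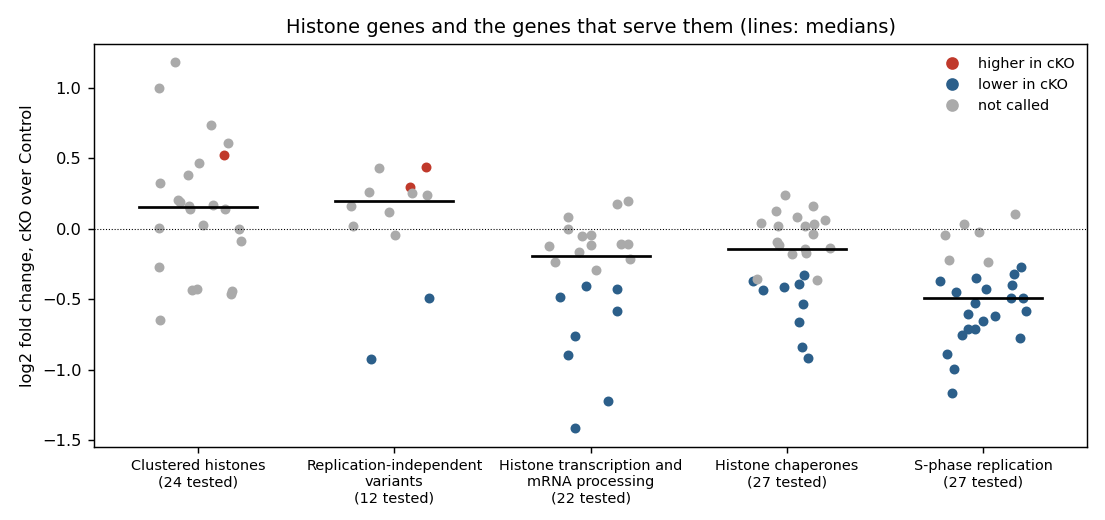
Log2 fold changes, cKO over Control, of the clustered histone genes tested and of 4 lists of genes around them, with 1 point per gene, black lines for medians and colours for genes called higher (red) or lower (blue) in cKO. The clustered histone genes have a median of 0.15 with 1 call, and the S-phase list has a median of -0.49 with 21 calls.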

How the data were processed

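Libraries of whole testes were made with a kit for mRNA, per the labels, and the values of 22219 genes in each library were deposited by the authors as a single table. Per the submitters' processing notes StringTie 1.3.1 and RSEM were used, with no role given. The aligner, genome build, annotation and strandedness were not given in the sources used here. Deposited values are a normalised signal: every value was a whole multiple of 1 step per column within a tolerance of 1e-06, so whole reads were recovered, with size factors of 0.825 to 1.35. Of recovered counts from 1 to 20, 78.1% were even. The table lists no gene under 10 reads in total.

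The test was limma 3.58.1 (R 4.3.3) with an intensity trend on log2(value + 2), 2-sided, cKO over Control, no covariate, with Benjamini-Hochberg adjustment over the 17570 genes that passed filterByExpr of edgeR 4.0.16 (minimum count 10, 4649 genes left out) and a call at an adjusted p under 0.05. This scale understates the change of low genes. The script was tested on simulated data. Alternatives were edgeR, DESeq2 1.42.0, scaling to library totals or to marker genes, pseudocounts of 0.5 and 16, no filter, a mean of 50 or more, a replicate block and leaving out each library. The labels do not state that replicates are different animals; p-values then reflect library-to-library spread alone, possibly technical. No libraries were duplicates (chi-square per degree of freedom 10.02 or more). Same-numbered libraries did not deviate together (correlations -0.04, -0.00 and 0.06).

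Groups and numbers came from the sample titles. The members, the 14 lists (156 of 165 genes matched by symbol or RefSeq synonym) and the tests were chosen with earlier results of these data known. Named were the 3 variants, every called member, the 3 members with the highest mean and those with the highest and lowest fold change in each class, up to 6 called genes with the largest change per list of histone-related genes, Slbp, Npat, H2afx, H2afz, H3f3a, H3f3b and Eif5. Transcripts came from GENCODE M21 and promoters from RefSeq GRCm38.p6. Shares of family reads are shares of mean normalised values, and lists are described by counts and medians, with no set test.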

Additional observations from a re-analysis of the deposited data

How the results depend on the processing

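Scaling mattered most. Over all genes the median was 0.01 on the log2 scale, and became -0.42 with Sertoli cell markers, 0.57 with germ cell markers and -0.08 with library totals. Replication-dependent genes called higher were 1 in the reported test, 0 with Sertoli cell marker scaling, 7 with germ cell marker scaling, 2 with a pseudocount of 16, and 0 to 1 when 1 library was left out, 0 without cKO replicate 3. None was called lower under any alternative run. Their median log2 fold change of 0.15 became 0.67 with germ cell marker scaling and -0.25 with Sertoli cell marker scaling, each near the shift of all genes. Genes of the whole table called higher numbered 807 with library totals, 22 with Sertoli and 10727 with germ cell marker scaling, and 916 to 1764 without 1 library; those called lower numbered 5031, 254 and 1278 to 1792 under Sertoli scaling, germ cell scaling and without 1 library. Under germ cell marker scaling the log2 fold changes of Cenpa (0.084), Chaf1a (0.040), Eif5 (0.26), Hat1 (0.16), Npat (0.15), Slbp (0.093) and Ubn1 (0.14) turned positive, and under Sertoli cell marker scaling that of H2afz turned to -0.14; the cause was not tested. Of 261 alternative values for the named clustered histone genes 242 kept their side of the threshold, with the same sign or a sign change within 1 SE, 2 lost a call, 7 gained one and 10 uncalled values changed sign by more than 1 SE. The groups share replicate numbers but no stated pairing. A replicate block gave 1 replication-dependent gene higher (Hist1h2bc, adjusted p = 0.0117), and 1535 genes higher and 1771 lower over the whole table. Depth limits most members, 30 of which did not pass the filter.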
